A study of Mus musculus with 6 samples.

Results

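The genes described here were read in every library of normal mouse myeloid progenitors (MPs) and almost not at all in acute promyelocytic leukemia (APL) progenitors. They were taken from the deposited table as the genes with at least 100 scaled fragments in each of the 3 MP libraries and at most 3 in each of the 3 APL libraries. A fragment is 1 sequenced piece of cDNA assigned to a gene, and the deposited values are fragments after a scaling that differs between libraries. The limits took 61 of the 16440 genes in the table (0.371%), and 52 genes had the opposite pattern. Because these values chose the genes, the difference between APL and MPs is given for them as a description only, without a test.

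The study used RNA-seq of 6 libraries from sorted mouse bone marrow cells of the FVB N/J strain, 3 of APL and 3 of MPs, which the design text calls biological replicates without naming the mice. The MPs were normal Lin-Sca-1-c-Kit+ cells. The leukemia was that of mice transgenic for hMRP8-PML/RARα, in which a promoter of the myeloid lineage drives the human fusion gene. Its cells carried GFP from a retroviral vector, were expanded by transplantation into syngeneic mice and were sorted as GFP-labeled c-Kit+ cells. The MP gate collects common myeloid, granulocyte and monocyte, and megakaryocyte and erythroid progenitors together, so in these bulk libraries fewer cells of a type and less RNA per cell cannot be told apart. The libraries held 20608715 to 28382785 fragments in genes before scaling. Kit, the receptor used for sorting, was read at 10668 ± 272 scaled fragments in MPs and 5929 ± 132 in APL (SD, n = 3 each), and was called lower in APL (limma, adjusted p = 5.9e-06). Ly6a, which encodes Sca-1, was read at 27.2 ± 7.09 in MPs and 43.4 ± 4.99 in APL (SD, n = 3 each), and was called higher in APL (log2 fold change 0.68, limma, adjusted p = 0.043). MP library 3 stood apart: the variance between it and the other MP libraries was up to 12.1 times that of counting noise. The same measure was 3.12 between MP libraries 1 and 2, and 3.17 to 5.87 between APL libraries.

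Myeloid progenitors use many genes at low levels before a lineage is chosen, among them regulators of red cells, platelets, dendritic cells and stem cells. GATA1 and its partners open the erythroid and megakaryocytic programs, and HOXA proteins, above all HOXA9, maintain immature progenitors and are lost as granulocytes mature. PML/RARα is a fusion of the PML protein with a retinoic acid receptor that binds DNA and recruits repressors.

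Of the 61 genes, 9 (14.8%) stood on any of 12 lists of lineage markers that together held 338 genes, beside 2.01% of all genes in the table and 1.81% of those with at least 100 in every MP library. The lists were drawn up with earlier results of these data known, and nothing is read from that difference. The other 52 genes stood on none. The 9 were Trim58 and Trim10 of the erythroid cell list, Rab27b and Gucy1a3 of the megakaryocyte list, Zbtb46 of the dendritic list, and Slamf1, Hoxa9, Hoxa7 and Tek of the stem and early progenitor list. No gene with these limits stood on the erythroid regulator, mast cell and basophil, eosinophil, monocyte and macrophage, neutrophil, B lymphoid, T and NK lymphoid, or endothelial and stromal lists.

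That these lineage genes were low together in APL was set by the limits, and whether they share a regulator was not tested. The promoters of 4 of them are shown as examples, with a GATA motif marked because GATA factors act on red cell and stem cell genes. Each is the 250 bases before the annotated start (RefSeq, GRCm38.p6), written 5′ to 3′ on the strand of the gene. Capitals mark AGATAA or TGATAA on either strand, forms of the GATA motif. Trim10 at chr17:36869324-36869573 (plus strand) had AGATAA on the opposite strand. Slamf1 at chr1:171766882-171767131 (plus strand) had TGATAA. Trim58 at chr11:58640215-58640464 (plus strand) and Hoxa9 at chr6:52227371-52227620 (minus strand) had neither. Forms of the GATA motif that end in G were not searched and are not in capitals. Trim58 holds AGATAG and Hoxa9 holds TGATAG, so neither promoter is shown to lack a GATA motif.
Trim10: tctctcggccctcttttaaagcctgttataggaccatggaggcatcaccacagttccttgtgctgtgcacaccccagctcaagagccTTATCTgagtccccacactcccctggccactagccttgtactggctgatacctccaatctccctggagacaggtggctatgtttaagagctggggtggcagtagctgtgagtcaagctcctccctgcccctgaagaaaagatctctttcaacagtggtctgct
Slamf1: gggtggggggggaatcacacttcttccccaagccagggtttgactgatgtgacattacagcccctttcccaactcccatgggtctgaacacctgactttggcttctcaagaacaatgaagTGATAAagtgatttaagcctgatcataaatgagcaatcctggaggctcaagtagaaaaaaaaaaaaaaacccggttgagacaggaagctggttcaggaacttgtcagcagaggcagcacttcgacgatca
Trim58: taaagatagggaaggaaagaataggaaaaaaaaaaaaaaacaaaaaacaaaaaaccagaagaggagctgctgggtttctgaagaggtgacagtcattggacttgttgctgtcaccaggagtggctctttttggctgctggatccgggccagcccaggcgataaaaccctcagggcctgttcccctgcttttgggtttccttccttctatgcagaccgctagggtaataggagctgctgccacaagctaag
Hoxa9: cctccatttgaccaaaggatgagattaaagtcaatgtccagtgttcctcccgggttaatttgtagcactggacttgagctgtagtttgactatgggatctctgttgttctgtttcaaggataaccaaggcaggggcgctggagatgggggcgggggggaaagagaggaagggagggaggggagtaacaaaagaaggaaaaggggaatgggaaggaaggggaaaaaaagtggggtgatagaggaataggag

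Promoters of 300 bases, 250 before and 50 after the start, were found for 45 of the 61 genes. AGATAA or TGATAA stood in 9 of the 45 (20%), beside 11.5% of the 12897 promoters of all genes in the table. In the 250 bases before the start the motif also stood in Zbtb46, Hnf4a, Clca1, Ldoc1l, Pglyrp2 and Itm2a. Other motifs searched on both strands were CCACCC in 40.0% against 36.8% of all, CACACCC in 11.1% against 8.55%, AGGTCA in 17.8% against 13.1%, TGTGGT in 6.67% against 13.3%, and GGAAGT in 11.1% against 27.5%. CACACCC and CCACCC can overlap. These matches are a description of letters in the window and not of bound sites.

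The erythroid genes Trim58 and Trim10 encode ubiquitin ligases of maturing red cells. TRIM58 acts on dynein as the erythroblast expels its nucleus, and TRIM10 is needed for terminal erythroid differentiation. Trim58 (chr11:58640465-58652404, mm10) was read at 279, 283 and 299 scaled fragments in MPs (libraries 1 to 3, in that order throughout) and at 0, 0.867 and 2.47 in APL. The MP libraries lay close together, and the APL values stood for 0 to 2 fragments each. The ratio of MPs to APL was 269 (95% interval 91.9 to 1308, exact, counting error only). Trim10 (chr17:36869574-36877833) was read at 134, 122 and 151 in MPs and at 0, 2.60 and 0 in APL, a ratio of 127 (43.3 to 619). Its APL fragments all came from APL library 2, the most deeply sequenced of the 6.

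Rab27b, a small GTPase of platelet granule secretion, was read at 178, 234 and 238 scaled fragments in MPs and at 0, 2.60 and 2.47 in APL. Gucy1a3, the alpha subunit of the guanylate cyclase through which nitric oxide acts on platelets, was read at 100.2, 131 and 133 in MPs and at 1.18, 0.867 and 0 in APL. For both genes MP library 1 was the lowest of the MP libraries. The ratios of MPs to APL were 122 (52.0 to 377) for Rab27b and 171 (47.0 to 1416) for Gucy1a3.

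Zbtb46 encodes a transcription factor of classical dendritic cells that erythroid progenitors also express. It was read at 286, 321 and 349 scaled fragments in MPs and at 1.18, 0.867 and 1.23 in APL, which is a single fragment in each APL library. The ratio was 299 (102 to 1452).

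Slamf1, which encodes CD150 of stem cells and of megakaryocyte and erythroid progenitors, was read at 256, 303 and 357 scaled fragments in MPs and at 2.36, 2.60 and 2.47 in APL. Tek, the angiopoietin receptor TIE2 of stem cells and endothelium, was read at 143, 149 and 188 in MPs and at 2.36, 0.867 and 1.23 in APL. Both had a fragment in every APL library, at ratios of 123 (59.4 to 306) for Slamf1 and 113 (43.9 to 417) for Tek.

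Hoxa9 and Hoxa7 were the only genes of the 61 that lay within 100 kb of each other, at chr6:52224054-52227370 and chr6:52215624-52218573. Hoxa9 was read at 217, 204 and 298 scaled fragments in MPs, highest in MP library 3, and at 1.18, 0 and 0 in APL. The ratio of 676 (121 to 26749) rested on 1 APL fragment. Hoxa7 was read at 133, 118 and 146 in MPs and at 2.36, 0 and 1.23 in APL, a ratio of 124 (42.3 to 605). A further 6 genes of the cluster missed the limits because at least 1 MP library read fewer than 100. These were Hoxa2, Hoxa3, Hoxa4, Hoxa5, Hoxa6 and Hoxa10, which in MPs lay between 4.51 and 74.9 and in APL did not exceed 2.36. All 6 were called lower in APL, as were 24.4% of all genes tested (limma with Benjamini-Hochberg adjustment across all 14595 genes tested). Their MP libraries alone took them past the filter of at least 1 scaled fragment in 3 libraries. That all but fixed the direction, so no p-value is given and nothing is read from these calls. In all 6 every APL library was below every MP library, which held for 39.8% of the genes tested. Hoxa2 and Hoxa6 had no fragment in any APL library. Hoxa3 to Hoxa6 share 1 locus in the deposited table, so that the division of fragments among them is uncertain.

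**Figure D1:**
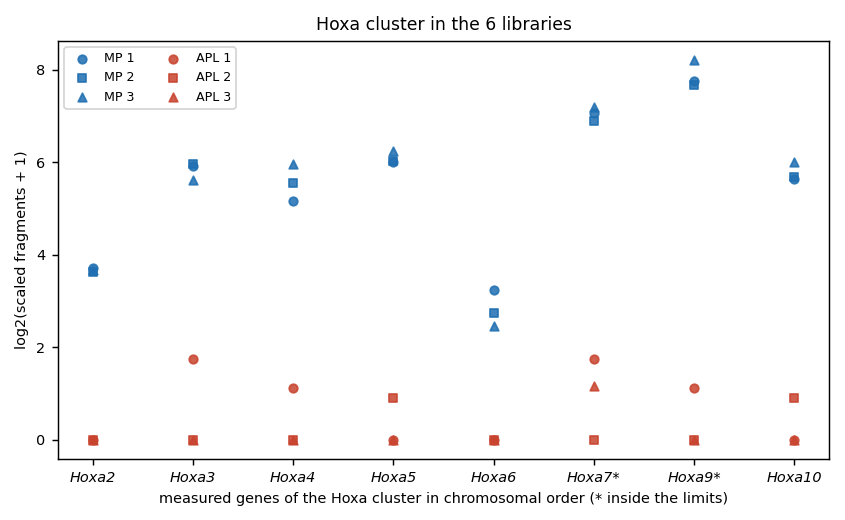
Scaled fragments of the 8 Hoxa genes described, in each MP and APL library, as log2 of the value plus 1, in the order of their position on chromosome 6. In each of the 8 the 3 APL points lie below the 3 MP points, and Hoxa9 and Hoxa7 are the only ones with all MP points above 100.

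The 61 genes were also sorted by function after they were known. Among 8 phosphatases, kinases and adaptors, Sh2d4a, an adaptor with an SH2 domain, had the highest level of the 61 genes in scaled fragments. It was read at 509, 448 and 448 in MPs and at 1.18, 0 and 0 in APL, and its ratio of 1317 (236 to 52052) rested on 1 APL fragment. The tyrosine phosphatases Ptpn14, Ptpn3 and Ptprk averaged 392, 306 and 148 scaled fragments in MPs. The focal adhesion kinase gene Ptk2 averaged 266, Ppp3cc, the gamma catalytic subunit of calcineurin, averaged 122, and Ppp1r26, a subunit of protein phosphatase 1, averaged 137. Tek completed the class. Sh2d4a lies on chromosome 8 and Ptk2, Krt18 and Ldoc1l on chromosome 15, where the median gene tested stood 0.61 and 0.58 (log2) above that of the other chromosomes in APL against MPs.

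Among 7 genes of transcription and chromatin, Hmgn3, a nucleosome binding protein, had the highest FPKM of all 61. It was read at 166, 112 and 157 scaled fragments in MPs and at 1.18, 2.60 and 2.47 in APL, a ratio of 68.1 (31.1 to 187), and HMGN genes have processed pseudogenes that can share reads with them. Med12l, a relative of a Mediator subunit, averaged 341 in MPs, but its locus holds 7 other genes of the table, the purinergic receptor genes P2ry12, P2ry13 and P2ry14 among them, so its fragments are uncertain. Zfp521, a zinc finger protein of immature blood cells, averaged 177. Hnf4a, a nuclear receptor best known from liver, was read at 102, 109 and 158 in MPs and at 1.18, 1.73 and 0 in APL. Zbtb46, Hoxa9 and Hoxa7 completed the class.

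Among 3 RNA binding proteins, Pcbp3, which binds poly(C), was read at 322, 272 and 368 scaled fragments in MPs and at 0, 1.73 and 1.23 in APL, a ratio of 302 (103 to 1465). Tdrkh, a Tudor protein of the piRNA pathway, averaged 282 in MPs, and Zc3h12c, of the Regnase family of RNases, averaged 165. The 7 G protein genes included Rab27b and Gucy1a3 and also Gna14, Gem, Arhgef5, Gprasp2 and Ranbp17, a nuclear transport receptor, with MP means of 118 to 247.

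Among 9 genes of the cell surface and membranes, the tetraspanins Tspan6 and Tspan8 were read highest in MP library 3. Tspan6 was read at 149, 154 and 244 scaled fragments in MPs and at 1.18, 0 and 0 in APL. Tspan8 was read at 131, 140 and 216 in MPs and at 1.18, 0.867 and 2.47 in APL. Sdc1, the heparan sulfate proteoglycan CD138, was read at 123, 105 and 124 in MPs and at 2.36, 1.73 and 2.47 in APL, a ratio of 55.1 (25.1 to 151). Slamf1, Fam174b, Igsf3, Tmem246, Itm2a and Ehd2, a protein of caveolae, made up the rest.

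Among 6 secreted or TGF-beta family genes, Spon2, a protein of the extracellular matrix, was read at 215, 263 and 363 scaled fragments in MPs and at 1.18, 0.867 and 0 in APL, a ratio of 396 (109 to 3272). Bmp1, a procollagen protease, Bambi, a decoy receptor of TGF-beta family signals, and the ligand Gdf3 averaged 234, 173 and 172 in MPs, beside Clca1 and Pglyrp2, which cleaves peptidoglycan. Among 4 genes of cytoskeleton and polarity, the keratin Krt18 was read at 196, 207 and 302 in MPs and at 1.18, 0 and 1.23 in APL, a ratio of 332 (91.5 to 2743). Its filament partner Krt8 averaged only 7.36 in MPs. Dmd, the dystrophin gene, spans 2256 kb and had the lowest FPKM of the 61, at 0.278 ± 0.0288 in MPs (SD, n = 3). Lrrc49 and the polarity gene Pard3b were the others.

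The 9 enzymes and transporters included Pcyt1b of phosphatidylcholine synthesis, the sulfotransferase Chst10, Nudt12, Pm20d2, 1110021L09Rik (Slc18b1 in RefSeq), Ache, the sialyltransferase St6galnac3 and Mthfd2l of mitochondrial folate metabolism, with MP means of 132 to 317. Ache, the acetylcholinesterase also carried by red cells, was read at 183, 144 and 165 in MPs and at 1.18, 0 and 1.23 in APL. The last 6 were Gm3002, AI854703, 1700048O20Rik, Ldoc1l, Serpinb6b and Unc5cl. RefSeq lists the first 2 as pseudogenes and 1700048O20Rik as a long noncoding RNA, and the other 58 genes of the 61 as protein coding. AI854703 had no fragment in any APL library against 121, 141 and 130 in MPs, so that it was at least 43.5-fold higher in MPs, with a floor of 3 fragments per library. Gm3002 has near-identical copies, and its value in MP library 3 was 0.58 of that in MP libraries 1 and 2 at the same total, the lowest of the 61, so its level is uncertain.

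**Figure D2:**
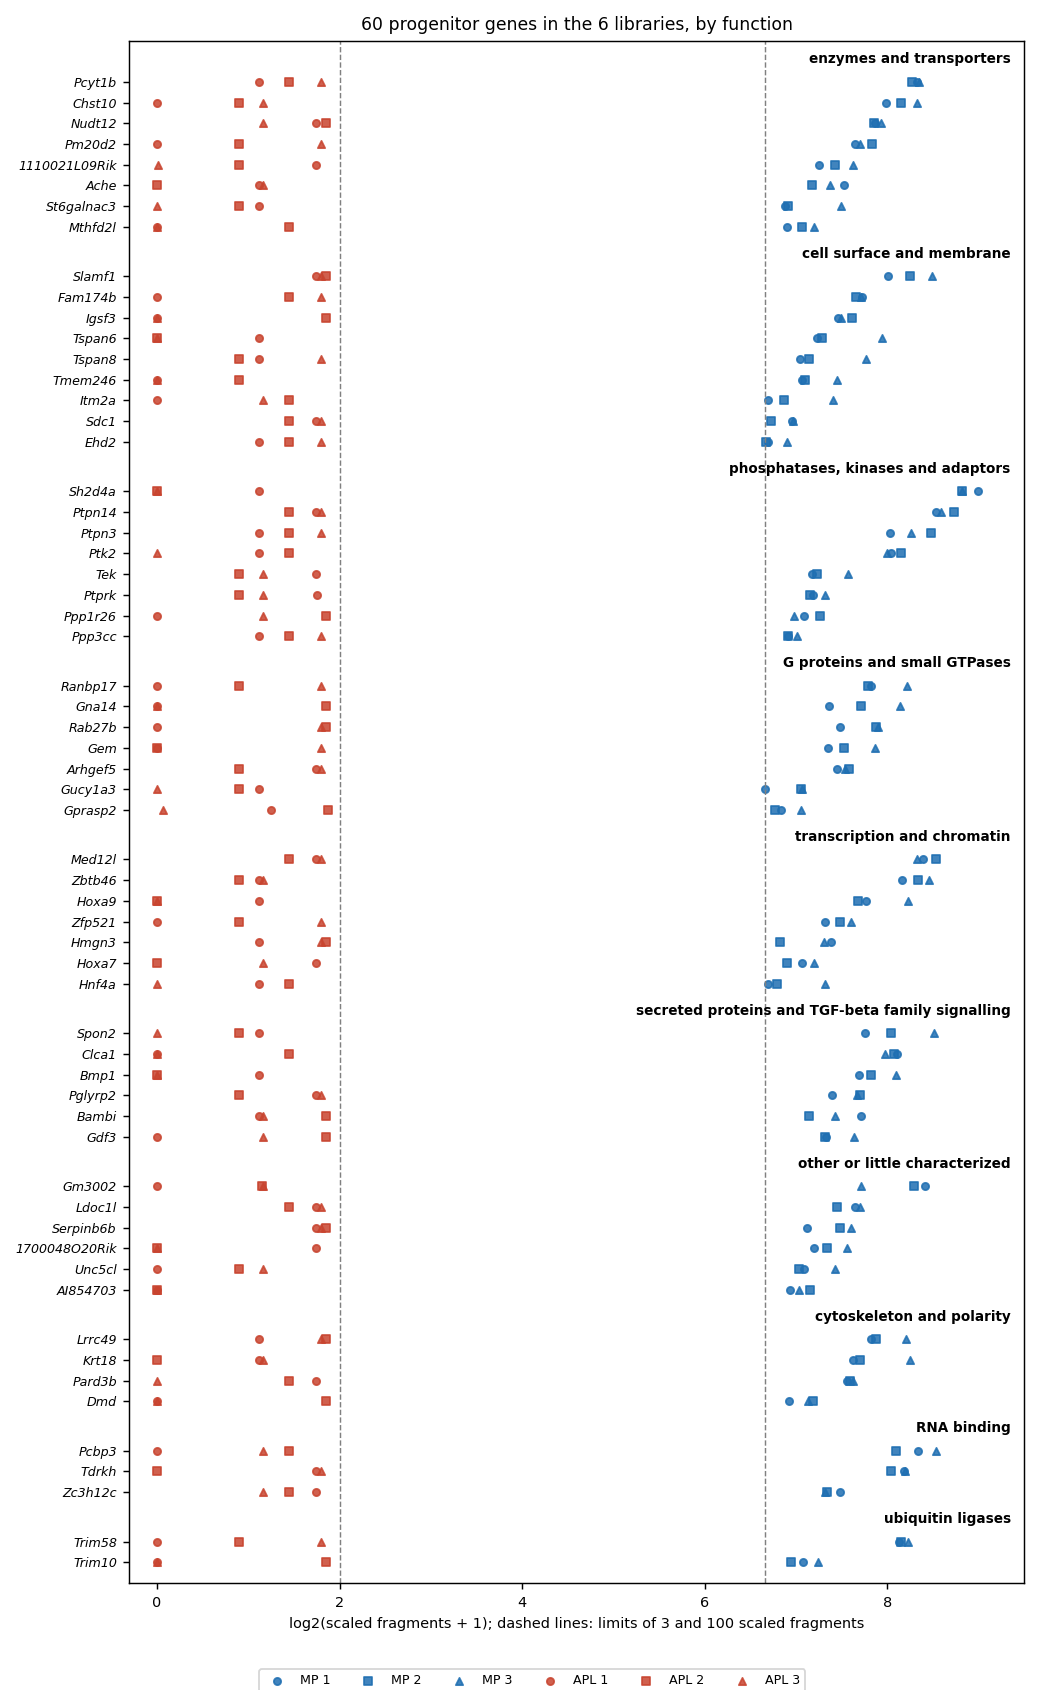
Scaled fragments of 60 of the 61 genes in the 3 MP and 3 APL libraries as log2 of the value plus 1, grouped by function. The MP points run from 100.2 to 509 and the APL points from 0 to 2.66, with 3 and 100 being the limits that chose the genes.

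In FPKM, which is per length of transcript and so can be set beside other genes, the 61 averaged 0.278 to 6.14 in MPs with a median of 2.10. Highest were Hmgn3 at 6.14 ± 1.18, Pcbp3 at 5.78 ± 0.759, Hoxa9 at 5.23 ± 0.975, Krt18 at 5.22 ± 1.17 and Sh2d4a at 5.21 ± 0.368 (SD, n = 3), and the spread of neighbours in this order overlapped. Tspan8, Zbtb46, Tspan6, Trim58 and Spon2 followed at 4.53 to 4.96. Between the MP libraries the coefficient of variation was 2.43 to 29.4% with a median of 11.4%, beside 11.5% for the 2543 genes with at least 100 in every MP library and a mean under 500. At the same total, MP library 3 exceeded the mean of the other 2 by at least 1.3 times in 8 of the 61 genes (13.1%) and in 6.57% of those 2543. The 8 were Tspan6, Tspan8, Itm2a, St6galnac3, Spon2, Gna14, Krt18 and Hnf4a.

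In APL the 61 genes held 212 fragments over all 3 libraries before scaling, against 40438 in MPs. The total of a gene was 0 to 7 fragments with a median of 3. In APL library 2, the deepest, 11 genes were at 0, against 23 and 22 in APL libraries 1 and 3, and 21 genes had a fragment in every APL library. The median ratio of MPs to APL was 168, and in 9 genes the lower bound of its interval was above 100. With so few APL fragments behind each ratio, their order was not read. The intervals do not allow for the choice of the genes by these same values.

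The 61 were genes of low level among those read in MPs, which the limits in part set. A fixed APL limit of 3 asks for a larger fall of a gene with a higher MP level. Of the 722 genes with at least 100 in every MP library and a mean under 200 scaled fragments, 36 met the APL limit (4.99%), and of the 1821 with a mean of 200 to 500, 25 did (1.37%). None of the 7450 genes with a higher mean did. By the ratio of means, 152 of the 9993 genes with at least 100 in every MP library (1.52%) were at least 100-fold lower in APL, of which 51 were among the 61 and 101 were not. Pklr, the pyruvate kinase of red cells, stood at 2632 scaled fragments in MPs and 7.80 in APL and Trib2, a pseudokinase, at 1937 and 5.36, and both missed the limits because more than 3 fragments remained.

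**Figure D3:**
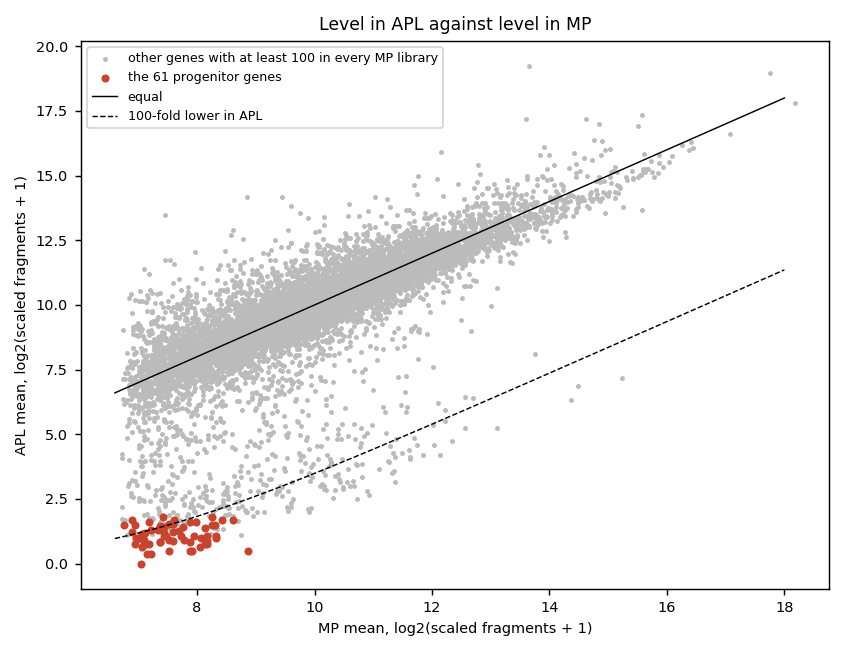
Mean scaled fragments in APL against the mean in MPs for all genes with at least 100 in every MP library, both as log2 of the value plus 1, with the 61 genes in red and lines for equal levels and a 100-fold lower level in APL. The 61 lie at MP means of 107 to 468, and no gene with an MP mean over 500 is red.

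Nearest inside the APL limit stood Gprasp2, Gdf3 and Ppp1r26, all by the value of APL library 2. Gprasp2, of receptor sorting, was read at 113, 108 and 132 in MPs and at 1.38, 2.66 and 0.0476 in APL. Gdf3 was read at 160, 158 and 198 in MPs and at 0, 2.60 and 1.23 in APL, and Ppp1r26 at 135, 152 and 125 and at 0.00099, 2.60 and 1.23. Fractions far below 1 fragment are estimates of the authors' processing. Nearest outside it, again by APL library 2, stood P2ry14 (123, 123 and 187 in MPs, 2.36, 3.47 and 1.23 in APL), Prelid2 (415, 405 and 464 in MPs, 0, 3.47 and 0 in APL) and Bmyc (195, 188 and 272 in MPs, 1.18, 3.47 and 1.23 in APL).

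Nearest inside the MP limit stood Gucy1a3, Ehd2 and Hnf4a, whose lowest MP values were 100.2, 100.9 and 102. Ehd2 was read at 102, 100.9 and 118 in MPs and at 1.18, 1.73 and 2.47 in APL. Nearest outside it stood Ptpn13 (98.3, 107 and 112 in MPs, 1.18, 0 and 1.23 in APL) and Lmcd1 (96.5, 147 and 186 in MPs, 0, 0.867 and 1.23 in APL).

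Across all genes, limma called 3558 of 14595 genes tested lower in APL (24.4%) and 3167 higher (21.7%), at an adjusted p under 0.05 and a fold change over 1.5. All 61 passed the low-value filter and were among the lower calls, which the choice of genes fixed. Their log2 fold changes ran from -8.50 to -5.22 with a median of -6.57, beside -0.10 for all genes tested.

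The other genes of the lineage lists were called in the same 6 libraries, and are those that did not meet the limits, so their counts are not independent of the choice of the 61. Of 293 such genes tested, 193 were lower in APL (65.9%) and 48 higher (16.4%), beside 24.4% and 21.7% of all genes tested. Their median log2 fold change was -1.65, beside -0.10 for all genes tested. The same shares of all genes stand beside each count per list below. The lists were drawn up with earlier results of these data known, so these counts are a description only. Of the erythroid regulators 19 of 21 were lower and none higher, with a median log2 fold change of -1.27. The summed FPKM of this list was 1086 to 1263 in MP libraries and 477 to 510 in APL libraries. The 2 genes named next had its largest falls, so they do not stand for the list. Zfpm1, a partner of GATA1, dropped to 22.9 scaled fragments in APL from 4205 in MPs (log2 fold change -7.62, adjusted p = 2.9e-07), and Klf1, the activator of globin genes, to 15.6 from 3157 (-7.57, adjusted p = 5.8e-09). Of the erythroid cell genes other than Trim58 and Trim10, 38 of 42 were lower and none higher. Pklr fell by 8.24 on the log2 scale (adjusted p = 5.6e-09) and Tspan33, an erythroid tetraspanin, changed by -8.32 (adjusted p = 4.4e-08). The summed FPKM of this list was 3197 to 3853 in MP libraries and 257 to 291 in APL libraries, with Tmod1 and Tspo2 at 0 in all APL libraries.

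Megakaryocyte genes went both ways. Besides Rab27b and Gucy1a3, 24 of 38 were lower and 7 higher. Gp5, a platelet glycoprotein, fell from 413 to 3.46 scaled fragments (-6.54, adjusted p = 9.9e-08), and Treml1, a platelet granule receptor, was read at 101 ± 42.5 in MPs and 0.289 ± 0.50 in APL (SD, n = 3). Gng11 rose by 3.11 and Serpine2, a protease inhibitor, by 2.81 (adjusted p = 8.8e-08 and 8.1e-09). The summed FPKM was 275 to 356 in MPs and 324 to 330 in APL.

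Of the stem and early progenitor genes other than the 4 already described, 27 of 32 were lower and 4 higher. Trib2 fell by 8.25 and Msi2, an RNA binding protein of stem cells, by 7.48 (adjusted p = 5.6e-09 and 1.1e-08), while Cd33 rose by 1.89 and Satb1 by 0.77 (adjusted p = 3.2e-06 and 0.00013). Of the dendritic genes other than Zbtb46, 12 of 20 were lower and 2 higher. Flt3, the receptor of dendritic progenitors, fell by 5.83 and Cd74 by 2.93 (adjusted p = 2.8e-08 and 1.5e-05), while Id2 rose by 1.25 and Bst2 by 0.93 (adjusted p = 0.00068 and 0.00034).

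The lists that held none of the 61 differed in direction. Mast cell and basophil genes were lower in 15 of 19 and higher in 3. Il1rl1, the interleukin 33 receptor, fell by 6.15 and Cpa3 by 5.48 (adjusted p = 3.5e-08 and 7.2e-07), and Mcpt8 and Mitf rose by 1.13 and 1.01 (adjusted p = 0.00012 and 0.0002). Eosinophil genes were lower in 9 of 12 and higher in 1: Epx and Prg2, granule proteins, fell by 2.51 and 2.50 (adjusted p = 3.4e-05 and 2.3e-05), and Siglec5 rose by 1.55 (adjusted p = 1.3e-06). Monocyte and macrophage genes were lower in 12 of 30 and higher in 12. Irf8, a regulator of monocytes, fell by 4.91 and Ly86 by 4.74 (adjusted p = 1.8e-08 and 5.8e-07), and Tlr7 rose by 3.83 and Ly6c2 by 3.61 (adjusted p = 5.1e-08 and 4.8e-08).

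Neutrophil genes were lower in 4 of 22 and higher in 11. Cd177 and Ctsg, of neutrophil surface and granules, rose by 3.35 and 2.55 (adjusted p = 6.4e-07 and 4.1e-07), and Fcnb and Ngp fell by 3.06 and 1.46 (adjusted p = 2.5e-06 and 0.00066). B lymphoid genes were lower in 12 of 21 and higher in 3, where Dntt and Cd79b fell by 6.44 and 5.62 (adjusted p = 4.4e-08 and 6.4e-07) and the surrogate light chain genes Igll1 and Vpreb1 rose by 8.13 and 3.35 (adjusted p = 5.6e-08 and 4.6e-06). T and NK lymphoid genes were lower in 13 of 22 and higher in 1. Zbtb16 fell by 6.17 (adjusted p = 3e-07), and Gzmb was read at 136 ± 47.9 in MPs and 1.11 ± 1.25 in APL (SD, n = 3). Endothelial and stromal genes were lower in 9 of 15 and higher in 4. Eng fell by 6.58 (adjusted p = 6.8e-09), Plvap was read at 167 ± 28.9 in MPs and 2.68 ± 2.34 in APL, and Stab2 was read at 2.73 ± 3.10 in MPs and 125 ± 8.86 in APL (SD, n = 3).

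**Figure D4:**
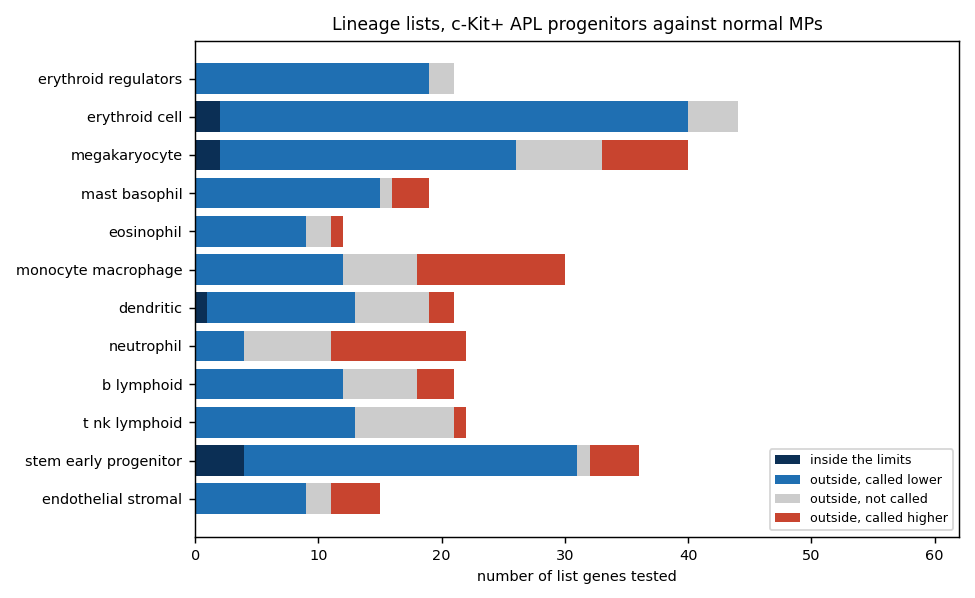
Number of genes of each lineage list that were called lower, called higher or not called in APL against MPs, and the number that met the limits of the 61. The erythroid cell, erythroid regulator and stem and early progenitor lists have the largest shares of lower genes, and the neutrophil list the smallest, with 4 of 22.

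For 39 of the 61 genes, 59 close relatives of the same protein family were listed, chosen after the 61 were known and before the relatives' values were seen. The table held 51 of them, of 32 genes, and 46 were tested. None met the limits. Lower in APL were 14 (30.4%) and higher 12 (26.1%), beside 24.4% and 21.7% of all genes, and 20 were not called, with a median log2 fold change of -0.06. Of the 32 genes with a relative in the table, 22 had one that was read at 100 or more in every APL library. The share of all genes at that level in APL was not counted, so nothing is read from this number.

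Several relatives were higher in APL where the gene among the 61 was near 0. Rab27a, the close relative of Rab27b, rose from 2132 ± 143 to 4867 ± 156 scaled fragments (SD, n = 3, adjusted p = 1.1e-06). Itm2b, a relative of Itm2a, rose by 1.98 on the log2 scale (adjusted p = 1.2e-06), Ptprm, a relative of Ptprk, by 2.68 (adjusted p = 1.1e-06), and Ppp3ca, the alpha catalytic subunit of calcineurin beside Ppp3cc, by 0.78 (adjusted p = 1.5e-05). Utrn, utrophin beside dystrophin, rose by 0.74 (adjusted p = 0.0045). Its call was lost on log2 of FPKM plus 1, without APL library 1 and without MP library 3. Pcbp1, Pcbp2, Med12, Pcyt1a and Ptk2b were not called.

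In other families relatives were lower too. Of the syndecans beside Sdc1, Sdc2 and Sdc3 were lower, with log2 fold changes of -5.19 and -3.62 (adjusted p = 1e-06 and 1.4e-05). Sdc4 was read at 13.3 ± 7.56 scaled fragments in MPs and 0.289 ± 0.50 in APL (SD, n = 3). It passed the filter through the MP libraries alone, so nothing is read from its call. Tie1, the relative of Tek, fell from 938 ± 18.7 to 78.3 ± 3.43 scaled fragments (SD, n = 3, adjusted p = 2.1e-08). Hmgn1, a relative of Hmgn3, fell from 6060 ± 782 to 36.6 ± 6.19 (SD, n = 3, adjusted p = 5.6e-09), while Hmgn2 was not called at a log2 fold change of 0.35. Beside Ehd2, Ehd1 and Ehd3 fell by 1.20 and 1.57 (adjusted p = 1.9e-05 and 1.5e-05) and Ehd4 rose by 0.71 (adjusted p = 4e-05), a call that was lost when each library was scaled to the same total.

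**Figure D5:**
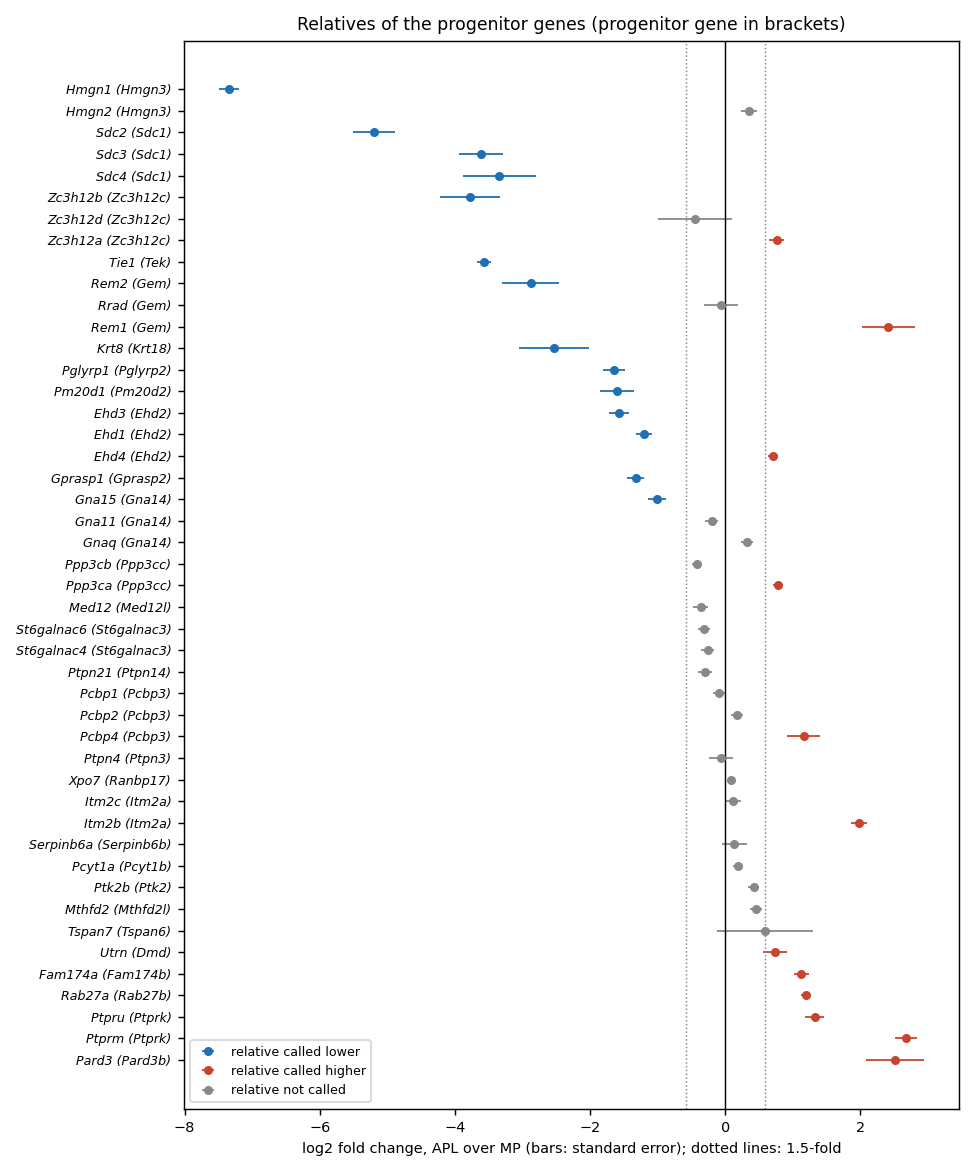
Log2 fold change of APL over MPs (log2 of scaled fragments plus 1) for the tested relatives of the 61 genes, with bars of 1 standard error, colored by call; dotted lines mark 1.5-fold. The points spread to both sides of 0, from 2.68 for Ptprm to -7.34 for Hmgn1, with a median of -0.06.

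The 61 genes were spread over 19 chromosomes, no more than 6 to a chromosome, and spanned 2.95 to 2256 kb with a median of 31.0 kb, beside 23.3 kb for all genes in the table and 20.3 kb for the 2543 genes of comparable level.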

How the data were processed

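RNA of the sorted cells was made into 3 MP and 3 APL libraries and sequenced with a TruSeq RNA protocol. The submitters' processing notes name CASAVA 1.8, TopHat2 2.0.6 and the mm10 build. The authors deposited 1 table with FPKM values and a fragment signal per gene and library. The deposited FPKM are scaled by transcript length and library size. The deposited signal is estimated fragments scaled per library: 1 fragment was worth 0.867 to 1.23, and 90.1 to 91.2% of values under 100 were whole multiples within 0.05. A count test was therefore not used. Starts in the table count from 0 and were raised by 1.

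Genes with at least 1 scaled fragment in 3 of 6 libraries were fitted with limma 3.58.1 in R 4.3.3 (trend, log2 of the value plus 1), and fold changes are on that scale, which understates changes of low genes. Calls needed a Benjamini-Hochberg adjusted p under 0.05 and a fold change over 1.5. On simulated data 196 of 200 changed genes were recovered, with 5 false calls, over 14728 genes tested. The changed genes were all well above the floor, every gene had the same dispersion and no library stood apart. The simulation therefore does not gauge calls of low genes or the effect of MP library 3. Ratios used fragments before scaling with exact binomial intervals (scipy 1.17.1, 95%), which cover counting error only and not the choice of the genes by these values. Groups came from the sample titles. If the libraries of a group share animals, p-values measure technical spread only.

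The 61 genes, the lineage lists and the functional classes were chosen with earlier results of these data known. The genes of the 61 were named, except 1 that, like a few other genes, is not reported here. Values per library were given for those on a list, the 10 highest in FPKM and the 3 nearest each limit. Others of them were added after their values were seen (Sdc1, Ache, AI854703). From each list up to 2 lower and 2 higher genes of largest fold change with a group mean of at least 100 were named. The Hoxa genes and the relatives were added after the 61 were known. Of the list symbols, 8 were matched through older names. Alternatives were other pseudocounts, filters, scalings, FPKM, fold thresholds, limits, a block by library number and each library left out.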

Additional observations from a re-analysis of the deposited data

How the results depend on the processing

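Most results kept their side of the threshold. In FPKM, where 11131 genes passed the filter, 1980 genes were lower in APL in place of 3558 and 2151 higher in place of 3167, and 127 list genes were lower in place of 193. FPKM were also fitted as log2 of the value plus 1 with a filter of at least 1. Both settings weigh more on FPKM, which are smaller values, so these counts cannot be set beside the main ones as a change of unit only. The number of genes within the limits was 3 with at most 1 fragment in APL, 224 with at most 10, 155 with at least 50 in MPs, 20 with at least 200, and 130 when group means had to pass. On fragments before scaling it was 84, of which 60 were among the 61. Leaving out each library gave 63 to 85. Over the libraries left out, 2913 to 3507 genes were lower and 2734 to 3256 higher, and 162 to 188 list genes were lower and 46 to 51 higher. Scaling to the same total shifted the median over all genes from -0.10 to -0.23 (log2), and 61.4% of calls were then lower, against 52.9%. Most calls were higher instead in FPKM (47.9% lower), with quantile normalization (47.9%), with median ratio scaling (49.0%) and without MP library 3 (47.2%).

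Of 1338 values of 92 named genes under alternatives, 1320 kept direction and call, 4 lost the call and 14 changed sign, all of genes not called: Itm2c was -0.014 and Xpo7 -0.042 at the same total, Ptpn4 0.0050 and Rrad 0.0028 with median ratio scaling, Rrad 0.47 and Zc3h12d 0.27 with quantile normalization. With each library left out, Ptpn4 ranged from -0.24 to 0.049, Rrad from -0.17 to 0.15, Zc3h12d from -1.02 to 0.099, Serpinb6a from -0.012 to 0.31 and Tspan7 from -0.28 to 1.09. The cause was not tested.

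Same-numbered libraries deviated together with correlations of 0.128, 0.0013 and 0.117 over 11907 genes, so the numbers were not taken as pairs. With the replicate block 3589 genes were lower and 3164 higher, and 193 and 48 list genes. At 0 to 7 APL fragments a gene, depth limits every ratio given. The same values chose the genes, so the ratios and their lower bounds are a description and not a test.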
